A study of Mus musculus with 2 samples.

Results

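The genes that join and divide mitochondria at their outer membrane were examined in white adipose tissue, the main lipid store of the body, of mice labelled as Oma1-deficient and as control. The set was a list of 9 genes chosen by known role: Mfn1, Mfn2, Dnm1l, Fis1, Mff, Gdap1, Mtfp1, Mtfr1 and Pld6. A gene was measured if a probe set of the array carried its symbol and no other, which held for 8 of the 9, among 19938 genes named in this way. Mtfr1 was the exception, since its probe set also carries the symbol Plppr1. RNA was profiled on 2 arrays, 1 of the group Oma1_WT, labelled as control, and 1 of the group Oma1_KO, labelled as Oma1-deficient. Per the labels both groups were 24 weeks old and had been fed a high-fat diet for 20 weeks. No group on another diet enters the comparison, and no body weight was used here. The fat depot, the sex, the strain, the nature of the Oma1 allele, and whether each RNA came from one animal or a pool are not given in the labels.

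Mitochondria form a network that is continually fused and divided. Fusion of the outer membrane is carried out by the mitofusins, and that of the inner membrane by Opa1, which the inner membrane protease Oma1 cuts when mitochondria are stressed. Division is carried out by Drp1, the product of Dnm1l, a cytosolic GTPase that is recruited by anchor proteins of the outer membrane, assembles into a ring and constricts the organelle. In adipocytes the state of this network is linked to fuel oxidation and to the handling of stored lipid. Much of its control acts on the proteins, through phosphorylation, ubiquitination and cleavage, and an RNA array does not measure those steps. The comparison is of fat after a high-fat diet. It asks whether transcripts of the outer membrane machinery differed between the array labelled Oma1-deficient and the control array.

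With 1 array a group there is no replicate to compare, so no value below has a test or a p-value, and 2 arrays allow little precision. Differences are on the scale log2(intensity + 1), Oma1_KO minus Oma1_WT, which understates the change of dim genes. A difference was called if it reached 1.5-fold, a log2 difference of 0.58. The log2 differences of probe sets of one gene, taken from 545 genes with exactly 2 probe sets, had a within-gene SD of 0.17. This SD is for the difference of 1 probe set and not for the gap between 2. It covers technical spread on these RNAs and not the spread between animals. Genes whose mean over both arrays reached an intensity of 83, the median of all 35512 probe sets, are called above the filter.

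None of the 8 measured fission and fusion genes differed by 1.5-fold between the arrays. Of the 8, 7 were above the filter, and the differences of those 7 lay between -0.11 and -0.01, a span of 0.10. All 7 were smaller than the SD of 0.17 between probe sets, as were 59.0% of the 11399 named genes above the filter. Among these 11399 genes 3.00% reached 1.5-fold in either direction, a share so low that the absence of calls says nothing particular about these 8. The median over the 8 was -0.04, beside 0.00 over all 19938 named genes. Over the 7 above the filter it was -0.07, beside -0.06 over all genes above it.

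**Figure D1:**
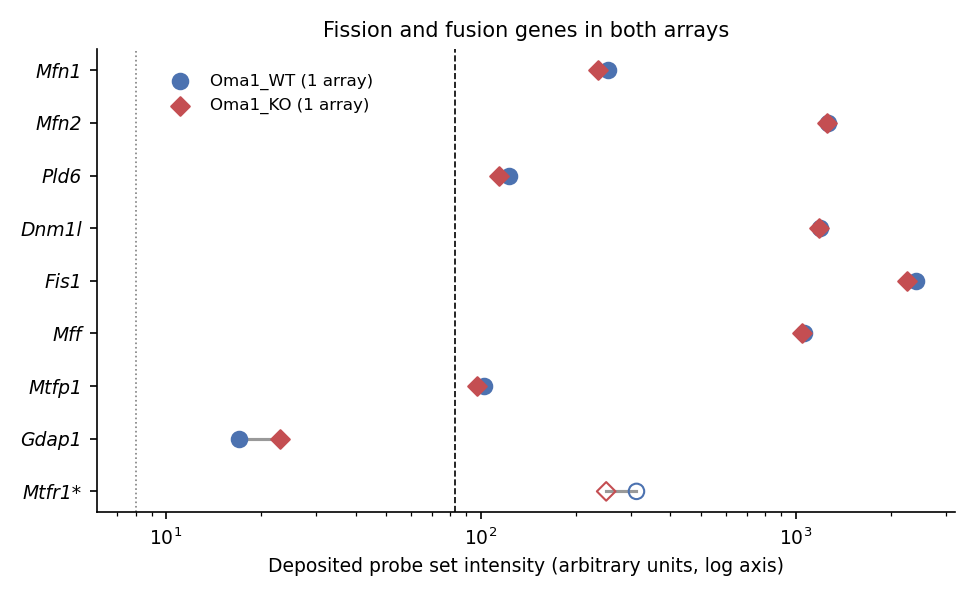
Deposited intensity (log axis) of each fission and fusion gene in the Oma1_WT array (circles) and the Oma1_KO array (diamonds), 1 array each. The dashed line marks the filter at 83 and the dotted line the lowest intensity on the arrays, 8. Open symbols with an asterisk mark the Mtfr1 probe set, which carries a second symbol. The paired symbols overlap for Mfn2, Dnm1l and Mff, and Gdap1 lies near the floor in both arrays.

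The fusion genes came first. Mfn1 and Mfn2 encode the mitofusins, GTPases that span the outer membrane and tether facing mitochondria, and Mfn2 is also found at contacts with the endoplasmic reticulum. Mfn1 (probe set 10491363) read an intensity of 253 in Oma1_WT and 235 in Oma1_KO, which is 92.9% of the control, a log2 difference of -0.11. Mfn2 (probe set 10518385) read 1269 and 1257, which is 99.1% of the control, a difference of -0.01. Only 6.15% of the genes above the filter had a smaller absolute difference than Mfn2, against 40.2% for Mfn1. The gap between the 2 mitofusins is nevertheless below the SD between probe sets of a single gene. Pld6 encodes a phospholipase of the outer membrane, also called mitoPLD, that turns cardiolipin into phosphatidic acid and promotes fusion by the mitofusins. It also acts in piRNA formation in the germ line. Its probe set (10386423) read 123 and 114, a difference of -0.11.

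In the core of the division machinery, Drp1 and its receptor Mff read nearly the same in both arrays. Dnm1l (probe set 10437992), which encodes Drp1, read 1193 in Oma1_WT and 1188 in Oma1_KO, a difference of -0.01, and 2.78% of genes above the filter had a smaller absolute difference. Mff encodes a tail-anchored receptor of the outer membrane that recruits Drp1 to mitochondria and peroxisomes. Its probe set (10347862) read 1060 and 1047, a difference of -0.02. Fis1 encodes a further tail-anchored protein, conserved from yeast, that has been tied both to Drp1 binding and to mitophagy. Its probe set (10526508) read 2405 and 2250, which is 93.6% of the control, a difference of -0.10. Dnm1l thus stood at 99.6% of the control and Mff at 98.8%, while the Fis1 difference was within the SD between probe sets as well. Dnm1l and Mff are heavily spliced, and 1 value a gene does not show a shift between isoforms.

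The other genes that promote division were Mtfp1, Gdap1 and Mtfr1. Mtfp1 encodes a protein of the inner membrane, also called Mtp18, whose loss elongates mitochondria, so it stands in the list by function and not by its place at the outer membrane. Its probe set (10383813) read 102 and 97, a difference of -0.07. Gdap1 encodes an outer membrane protein best known from neurons, where its mutation causes a form of Charcot-Marie-Tooth neuropathy. Its probe set (10344973) read 17 and 23, a log2 difference of 0.42 that amounts to 6 intensity units on arrays whose lowest value was 8. It was the one member below the filter, and no detection call was used. Among the 8539 named genes below the filter 6.45% had an absolute difference at least as large. That set runs up to the filter and was not matched to Gdap1 in intensity. Of 5 measured nerve and Schwann cell markers 4 were higher and 1 equal, and only 1 of them was above the filter. Their summed intensity was 384 in Oma1_WT and 462 in Oma1_KO. By comparison, 47.9% of all 19938 named genes were lower, against 62.3% of those above the filter, so dim genes read lower less often. The part of these markers in the Gdap1 value was not tested. The probe set shared by Mtfr1, a promoter of mitochondrial division, and Plppr1 (10490955) read 312 and 250, a difference of -0.32. This signal cannot be assigned to either gene, so it enters no count of the measured members.

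All 7 members above the filter read lower in Oma1_KO, a direction that most genes shared. Among all genes above the filter 62.3% were lower by any amount, and the sign of the smallest differences turned with the scaling. After quantile normalisation 4 of the 7 were lower, beside 52.2% of all genes, and after a loess correction on intensity 4 of the 7, beside 52.5%. Mfn2 became 0.02 and 0.04 under these scalings, Dnm1l 0.04 and 0.05, and Mff 0.03 and 0.04. Mfn1, Fis1, Pld6 and Mtfp1 remained below 0 under both, between -0.11 and -0.04.

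**Figure D2:**
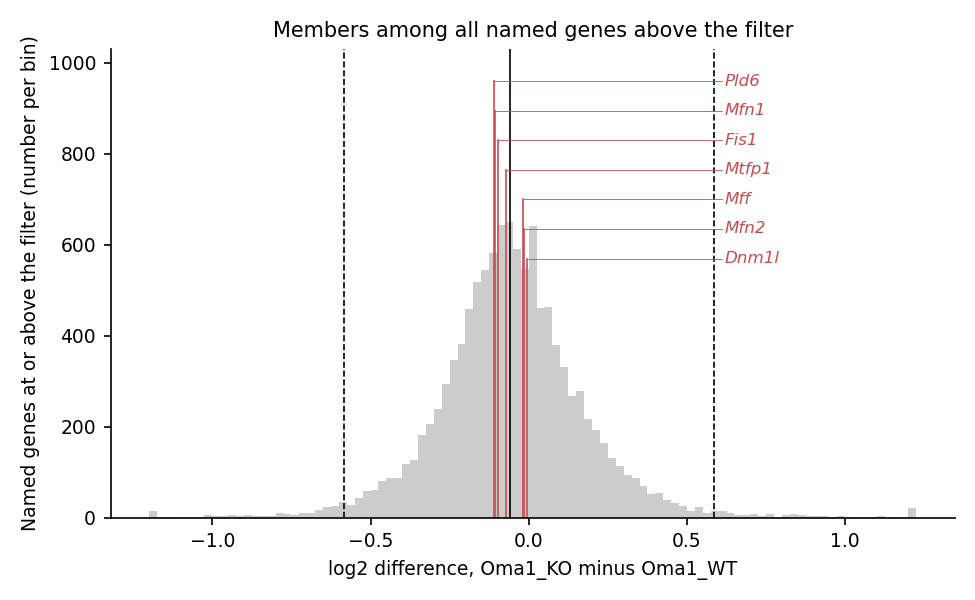
Histogram of log2 differences (horizontal axis, Oma1_KO minus Oma1_WT; values beyond the axis are counted in the end bins) over the 11399 named genes above the filter, with the 7 members above the filter as red lines. The solid line is the median of -0.06 and the dashed lines mark 1.5-fold. The members lie from -0.11 to -0.01, around the centre of the distribution.

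**Figure D3:**
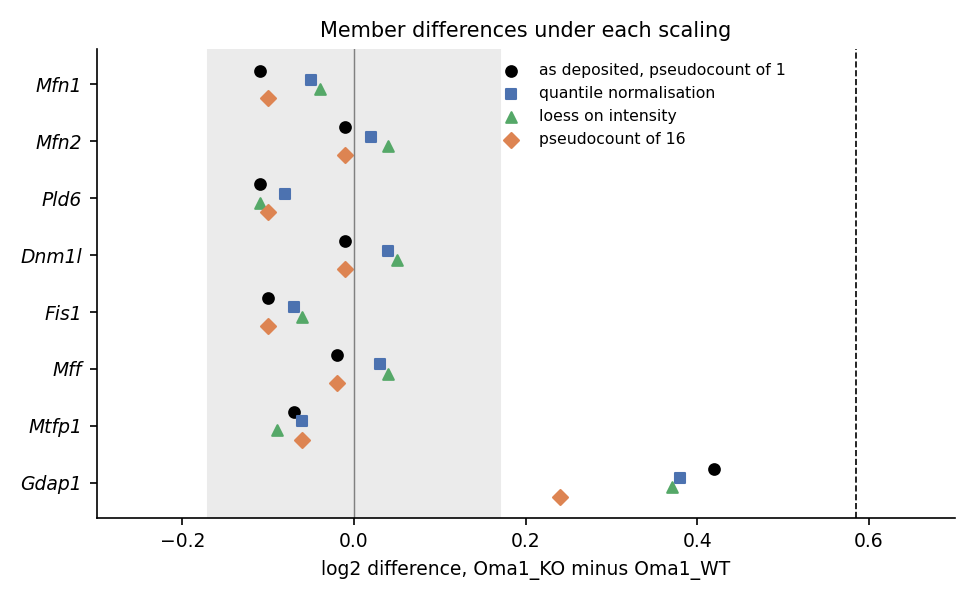
Log2 difference of the 8 measured members (horizontal axis) as deposited, after quantile normalisation, after loess and with a pseudocount of 16. The grey band is 0 plus or minus the SD of 0.17 between probe sets, and the dashed line marks 1.5-fold. The 7 members above the filter stay inside the band under each, and Gdap1 goes from 0.42 to 0.24 with the larger pseudocount.

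The start regions of the members were read from a table of RefSeq (GRCm38.p6) windows, in which 7 of the 9 had at least one window of 300 bases, 250 before and 50 after a start. Gdap1 and Mtfr1 were not matched in the table used here. The 13 windows were rich in G and C, with a median of 62.3% against 52.7% over all 32851 windows. They were searched on both strands for 5 motifs of factors that act on genes of mitochondrial proteins or on housekeeping promoters, and none of the motifs contains another. The ETS site CCGGAAGT, bound by the factor NRF-2 (GABP), stood in windows of 2 of the 7 genes, Mfn1 and Fis1, beside 4.31% of all 27025 genes with a window. By window it stood in 3 of the 13, beside 3.89% of all windows. The 2 ETS matches that lie before a start, in a fusion and a fission gene, are shown with the motif in capitals.
Mfn1: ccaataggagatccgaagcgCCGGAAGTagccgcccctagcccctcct
Fis1: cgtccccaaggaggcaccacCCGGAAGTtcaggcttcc
The Mfn1 stretch is chr3:32529418-32529465 on the plus strand, its motif beginning 44 bases before the start, and the Fis1 stretch is chr5:136953237-136953274 on the plus strand, beginning 18 bases before the start. The GC box GGGCGG stood in windows of 6 of the 7 genes, all but Mtfp1, beside 38.2% of all genes, and in 10 of the 13 windows, beside 35.7% of all windows. The E-box CACGTG stood in 1 of the 13 windows, of Pld6, beside 7.15% of all windows. The ERR site TCAAGGTCA and the CRE core TGACGTCA stood in 0 of the 13 windows, against 0.423% and 1.79% of all windows. The shares over all windows and genes were not matched for G and C content. A gene with several windows also has more chances of a match. A match describes these letters only, and the arrays carry no measure of binding.

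The wider machinery held no gene past 1.5-fold either. Of 81 genes in 8 lists around the members, 75 were measured and 0 were called, beside 2.55% of all 19938 named genes. Of the 75, 55 were lower and 20 higher, beside 47.9% of all named genes lower, with a median of -0.08. After quantile normalisation and after loess 45 of the 75 were lower, with medians of -0.04 and -0.03. Under these scalings 52.2% and 52.5% of all genes above the filter were lower, with a median of -0.01 under both. As deposited, 74.3% of the 70 list genes above the filter were lower, with a median of -0.08. All genes above the filter are the nearer comparison, with 62.3% lower and a median of -0.06.

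Oma1 itself, the targeted gene, read 187 in Oma1_WT and 155 in Oma1_KO, a difference of -0.27. Which part of the transcript the allele removes is not given in the labels, so its single probe set does not check the genotype. In the list for inner membrane fusion and Opa1 processing 7 of 9 measured genes were lower, with a median of -0.10. Afg3l2, a subunit of the matrix-facing AAA protease, read 645 and 572, a difference of -0.17. Opa1, the substrate of Oma1, which is named here for that role and not by size, read 757 and 674, also -0.17.

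The next list mixed Drp1 adaptors with constriction factors, relatives of the members and other factors, so its counts do not describe Drp1 adaptors alone. Of its 10 genes 7 were lower and 3 higher, with a median of -0.05, which was 0.00 after quantile normalisation. Spire1, an actin nucleator with a mitochondrial form, read 236 and 205, a difference of -0.20. Mtfr1l, a relative of Mtfr1 and the one member of that family above the filter with a symbol of its own, read 926 and 851, a difference of -0.12. The dimmer relative Mtfr2, below the filter, read 53 and 43, a difference of -0.30, the furthest from 0 in the list.

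Among enzymes that modify the fission and fusion proteins, 9 of 11 measured genes were lower, with a median of -0.09. Pgam5, a mitochondrial phosphatase that acts on Drp1, read 393 in Oma1_WT and 280 in Oma1_KO, a difference of -0.49. That was the largest absolute difference in the 8 lists and stayed at -0.42 after quantile normalisation and after loess, short of 1.5-fold each time. Mul1, a ligase of the outer membrane that marks Drp1 and the mitofusins, read 392 and 338, a difference of -0.21.

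Partners of outer membrane fusion were lower in 6 of 7 measured genes, with a median of -0.16, the lowest of the 8 lists. The list does not sort genes by whether they favour or oppose fusion, so its direction is not a measure of fusion. Ddhd1, a phospholipase that acts on phosphatidic acid, the lipid that Pld6 makes, read 625 and 507, a difference of -0.30. Its relative Ddhd2 read 392 and 383, a difference of -0.03. Lpin1, the phosphatase lipin 1, an enzyme of triglyceride synthesis in fat, read 3302 and 2695, a difference of -0.29. Ddhd1 and Lpin1 stayed below 0 after either scaling, Ddhd1 at -0.24 and -0.23 and Lpin1 at -0.27 and -0.26. Neither reached 1.5-fold.

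The remaining lists covered cristae, transport, peroxisomes and mitochondrial mass. Of 10 measured genes of the cristae junction complex 7 were lower, with a median of -0.08. Its Micos10 read 325 and 262 (-0.31) and Micos13 read 462 and 399 (-0.21). Of 9 transport adaptors 6 were lower, with a median of -0.06 that was 0.01 after either scaling. Armcx1, an outer membrane protein of mitochondrial movement, read 378 and 312 (-0.28), while Snph, which anchors mitochondria to microtubules, read 147 and 176 (0.26). Both measured peroxisome division factors stood on opposite sides, Pex11a at 1202 and 1062 (-0.18) and Pex11g at 120 and 130 (0.11). Of 17 genes that track mitochondrial mass 12 were lower, with a median of -0.07 and a summed intensity in Oma1_KO of 97.0% of the control. Ndufv1, a subunit of complex I, read 1319 and 1137 (-0.21), and Tomm20, an import receptor, read 873.5 and 761 as the mean of 2 probe sets (-0.20).

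**Figure D4:**
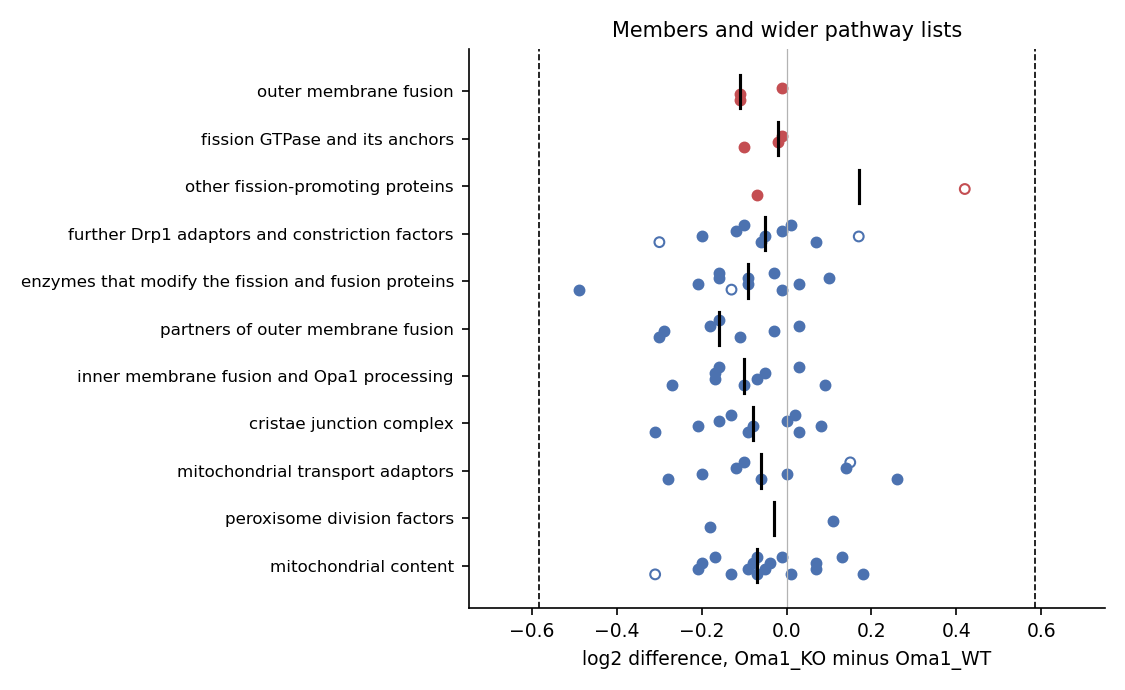
Log2 difference of each measured gene (horizontal axis, Oma1_KO minus Oma1_WT) in the member groups (red) and the 8 wider lists (blue), with open symbols below the filter, a black bar at each list's median and dashed lines at 1.5-fold. No gene reaches a dashed line, and Pgam5 at -0.49 is the nearest.

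The tissue label was checked against markers, and summed marker levels differed between the arrays. All 11 measured adipocyte markers were above the filter, and 10 of the 11 were lower, with a median of -0.12. Among all genes above the filter 62.3% were lower, with a median of -0.06. Marker sums are of deposited values and were not recomputed under the other scalings. The summed intensity of the adipocyte markers was 73174 in Oma1_WT and 65118 in Oma1_KO (89.0%). Summed markers of other cell types differed further. In Oma1_KO they stood at 68.1% of Oma1_WT for mesothelium (2586 and 1761, 7 of 8 genes lower, median -0.55) and at 78.7% for endothelium (9584 and 7547, 8 of 9 lower, median -0.34). They stood at 116% for macrophages (26409 and 30744, 9 of 10 higher, median 0.26), at 227% for liver (3583 and 8125, 7 of 8 higher, median 0.87) and at 129% for erythroid cells (836 and 1076, 3 of 3 higher, median 0.36). For brown and beige fat the sums were 1624 and 1894, but 4 of 8 genes were higher and 3 lower, with a median of 0.01. Cidea, at 84 and 213, and Cox8b, at 926 and 1079, together gained more than that whole gap. For skeletal muscle the sums were 685 and 770 with a median of 0.05, and Pvalb, a gene below the filter at 44 and 110, made up most of the gap. No marker was at 0, the lowest intensity on either array being 8. In bulk tissue fewer cells of a type and less RNA per cell cannot be told apart, and the part of cell make-up in the members' values was not tested.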

How the data were processed

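Biotinylated cRNA made from Trizol-extracted RNA was read on the Affymetrix Mouse Gene 1.0 ST platform, per the labels' protocols and the series design. The values the authors deposited are intensities, 1 for each probe set on each array, linear and rounded to whole numbers, from 8 to 21216 in Oma1_WT and from 8 to 21365 in Oma1_KO. How they were background-corrected, summarised and scaled, and with which software, is not given in the sources used here. Both arrays had a median of 83, with upper quartiles of 335 and 318.

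Symbols came from GEO's platform annotation: 21789 probe sets had 1 symbol, 1621 several and 12102 none. List symbols older than RefSeq's (GRCm38.p6) were updated through its synonyms. Values were log2-transformed after a pseudocount of 1, and probe sets of a gene averaged. Members and lists were chosen with earlier results of these data known. Named genes are all members, Oma1, and from each pathway list those past 1.5-fold or otherwise the 2 largest absolute differences above the filter. Opa1, Mtfr2, Ddhd2 and Cox8b were added after their values were seen. No gene was named for a pattern like a member's, since 2 arrays give 1 difference. The calculation was tested on simulated data. Alternatives were quantile normalisation, loess (fraction 0.3), centring, a pseudocount of 16, the brightest probe set, probe sets with several symbols and other filters. Python 3.11.15, numpy 2.4.6, pandas 2.3.3, statsmodels 0.14.6 and matplotlib 3.10.9 were used.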

Additional observations from a re-analysis of the deposited data

How the results depend on the processing

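No paired analysis was possible because each group has 1 array, and no array could be left out. Of the 8 measured members, 7 were lower as deposited and 4 after quantile normalisation and after loess, where Mfn2, Dnm1l and Mff changed sign. No member reached 1.5-fold under any alternative. Gdap1 was 0.24 with a pseudocount of 16, which by construction shrinks dim values. The number of all named genes past 1.5-fold, 342 above the filter, was 135 with the filter at the upper quartile, where fewer genes are tested. Centring subtracted 0.00, and each measured member has 1 probe set with its symbol, so centring and the brightest probe set could not move their values. Medians of the 8 wider lists, from -0.16 to -0.03 as deposited, were all nearer 0 than the SD of 0.17 between probe sets. Under each alternative run they moved by less than that SD, which a shift to 0 would also do, so it cannot judge them. They lay between -0.12 and 0.01 after quantile normalisation and between -0.11 and 0.01 after loess. The median of the members above the filter alone, chosen after seeing the data, was -0.07. With the Mtfr1 probe set of several symbols added, the median over 9 members was -0.07. The planned order of members by intensity was not run, since probe sets of different genes differ in affinity and their intensities do not rank transcripts.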
